A study of Mus musculus with 2 samples.

Results

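The mitosis genes described here were 38 genes of the G2 and M phases of the cell cycle, chosen by symbol from 43280 symbols in the count tables. They covered mitotic entry (10 genes), the spindle checkpoint and the anaphase-promoting complex (7), the centromere and the chromosomal passenger complex (6), the spindle (7), cytokinesis (6) and chromosome structure (2). The study compared mature hepatocytes (MHs) with small hepatocytes (SHs), a population described as hepatocyte progenitors, by sequencing 1 poly(A)-selected library of each. Both came from the same C57BL6 mice, labelled as 20 weeks old (the study's methods give a younger range), by collagenase perfusion of the liver, and were used without culture. The mice carried no stated transgene and received no stated treatment. Per the study's methods, Percoll centrifugation removed dead cells from both fractions, and the MHs went unsorted. The SHs had been sorted by FACS as cells with ICAM-1 and without CD31, CD45 and EpCAM on their surface, a gate that removes endothelial, blood and bile duct cells from the SHs and not from the MHs. With 1 library per cell type no difference could be tested, no p-value is given, and each interval is an exact 95% interval that covers counting error only.

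Cells that enter mitosis switch on a shared program late in the cycle. Cyclin B and Cdk1 drive entry, kinetochores and the spindle checkpoint hold back anaphase until the chromosomes are attached, the anaphase-promoting complex then marks securin and cyclins for degradation, and cytokinesis splits the cell. In adult liver nearly all hepatocytes rest outside the cycle, and these genes are known to be low there until the liver is damaged or partly removed. Many promoters of the program carry a CCAAT box and a cell cycle homology region. Through the homology region the DREAM complex holds them down in resting cells, and B-Myb and FoxM1 act in dividing ones.

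The MH library held 16979136 counted reads and the SH library 42356444, which was 2.49 times as many. At an equal level in both, 71.4% of the reads of a gene would fall in the SH library. Levels are therefore given as reads per 1000000 counted reads (RPM), and ratios as log2 of SH over MH with 0.5 reads added to each count of a single gene. The limit that a count of 0 allows was set at 3 reads, which is 0.177 RPM in MHs and 0.0708 RPM in SHs. The upper end of the exact 2-sided interval is higher, at 0.217 RPM for a count of 0 in MHs. The labelled cell type held in both libraries: the summed level of 8 hepatocyte markers was 77248 RPM in MHs and 82279 RPM in SHs. Markers of other liver cells were not equal. The summed level of 10 endothelial markers was 102 RPM in MHs and 5.24 RPM in SHs, giving a log2 ratio of -4.29, and all 10 were at least 2-fold lower in SHs. Macrophage markers summed to 22.4 RPM and 1.02 RPM, with 8 of the 9 counted genes lower by that rule, and stellate cell markers to 26.9 RPM and 2.69 RPM, with 9 of 9 lower. The markers with the most reads in MHs were Ptprb (422 reads in MHs, 30 in SHs), Clec4f (92 and 6) and Reln (130 and 64). In SHs they were Stab2 (338 in MHs, 119 in SHs), Cd68 (7 and 15) and again Reln. Of the cholangiocyte markers, Epcam held 6 reads in MHs and 1 in SHs and Krt19 1 read in each, while Sox9 (92 and 325 reads) and Spp1 (136 and 271) were more abundant. Lymphocyte markers held 3 reads in MHs and 4 in SHs in all, and granulocyte markers 1 and 4. Erythroid markers were almost wholly Alas2, the erythroid form of the first enzyme of haem synthesis, at 98.5% of their reads in MHs. Endothelial cells, macrophages and stellate cells can divide and carry the mitosis genes too, and their part in the values below was not tested. In bulk RNA, fewer cells of a type and less RNA per cell cannot be told apart.

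The mitosis genes were scarce in both libraries. They summed to 610 reads in MHs, 0.00359% of all counted reads, and to 1671 reads in SHs, 0.00395%. Of the 38 genes, 37 had a read in MHs and all 38 in SHs; 7 genes had 3 reads or fewer in MHs and 2 in SHs, and 12 had at least 10 reads in MHs and 29 in SHs. In MHs 30 of the genes lay under 1 RPM, and in SHs 29. Their median count was 6 reads in MHs and 18 in SHs.

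The promoters below belong to 5 genes with ratios above 0 and to an abundant gene, Cks2, with a ratio of 0.05. The last belongs to a partner of Cdk1 with a ratio under 0. All were chosen after their values had been seen. They are 120-base stretches of RefSeq's GRCm38.p6 promoter windows, taken before the annotated start of the gene, written 5′ to 3′ along the strand of the gene. Capitals mark the CCAAT box (CCAAT, or ATTGG on the other strand) and the letters of the cell cycle homology region (TTTGAA, or TTCAAA on the other strand).
Ccnb2 (chr9:70421555-70421674, minus strand) and Ube2c (chr2:164769778-164769897, plus strand), the genes with the largest ratios above 0:
Ccnb2: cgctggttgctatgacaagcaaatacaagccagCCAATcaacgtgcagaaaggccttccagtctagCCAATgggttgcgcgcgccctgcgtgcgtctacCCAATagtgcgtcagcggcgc
Ube2c: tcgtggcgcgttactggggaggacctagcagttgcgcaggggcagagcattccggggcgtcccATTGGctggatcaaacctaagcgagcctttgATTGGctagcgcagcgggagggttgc
Top2a (chr11:99024190-99024309, minus strand), Mki67 (chr7:135716380-135716499, minus strand) and Cdc20 (chr4:118437353-118437472, minus strand), which showed both letters or a pair of one:
Top2a: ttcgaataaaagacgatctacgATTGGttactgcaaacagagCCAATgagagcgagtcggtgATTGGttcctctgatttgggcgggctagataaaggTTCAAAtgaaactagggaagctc
Mki67: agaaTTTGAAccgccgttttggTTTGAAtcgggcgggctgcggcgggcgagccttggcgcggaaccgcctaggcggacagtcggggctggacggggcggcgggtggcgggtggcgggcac
Cdc20: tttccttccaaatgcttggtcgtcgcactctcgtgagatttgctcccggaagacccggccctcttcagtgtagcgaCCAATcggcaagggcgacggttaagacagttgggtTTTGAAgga
Cks2 (chr13:51645112-51645231, plus strand), second in reads among the 38:
Cks2: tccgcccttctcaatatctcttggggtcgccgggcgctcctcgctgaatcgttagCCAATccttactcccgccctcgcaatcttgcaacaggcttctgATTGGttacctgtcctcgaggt
Ccnb1 (chr13:100786571-100786690, minus strand), a partner of Cdk1 with a ratio under 0:
Ccnb1: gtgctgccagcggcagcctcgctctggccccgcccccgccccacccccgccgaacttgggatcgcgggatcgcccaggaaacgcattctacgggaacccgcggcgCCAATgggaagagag
The cell cycle homology region letters of Ccnb2 (2 matches in its whole window) and Ube2c (1 match) lay outside the printed stretches, as did the CCAAT boxes of Mki67 (3 matches). Other whole windows also held more than is printed. Ube2c and Top2a had 6 CCAAT boxes each, Cks2 4, and Cdc20 and Ccnb1 2 each, and Top2a had 2 homology region matches. In the windows of 300 bases from 250 before to 50 after the start, which were given for 33 of the 38 genes, the cell cycle homology region letters were found in 24 (72.7%) and the CCAAT box in 27 (81.8%), on either strand. Over 27025 windows of the same length they were found in 18.1% and 37.9%, and over the 2633 windows of genes with 10 reads or more but fewer than 200 in 14.4% and 41.2%. The letters were not particular to the 38 genes. Each was in 63.0% of 46 windows of other mitosis genes, and DNA replication genes had 10.7% and 64.3%. Both letters together were in 22 mitosis gene windows (66.7%) against 7.12% of all windows and 45.7% of those of other mitosis genes. An E2F-like site, GCGGGAA on either strand, was in none of the 33 against 4.66% of all windows, and in 50% of 28 windows of DNA replication genes. None of the 3 letters was found in the windows of Pttg1, Mad2l1, Birc5 and Nusap1, and windows were not given for Ccna2, Cdc25c, Aurkb, Tpx2 and Kif20a. A match is a description and not a site, and the letters were counted wherever they occurred.

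**Figure D1:**
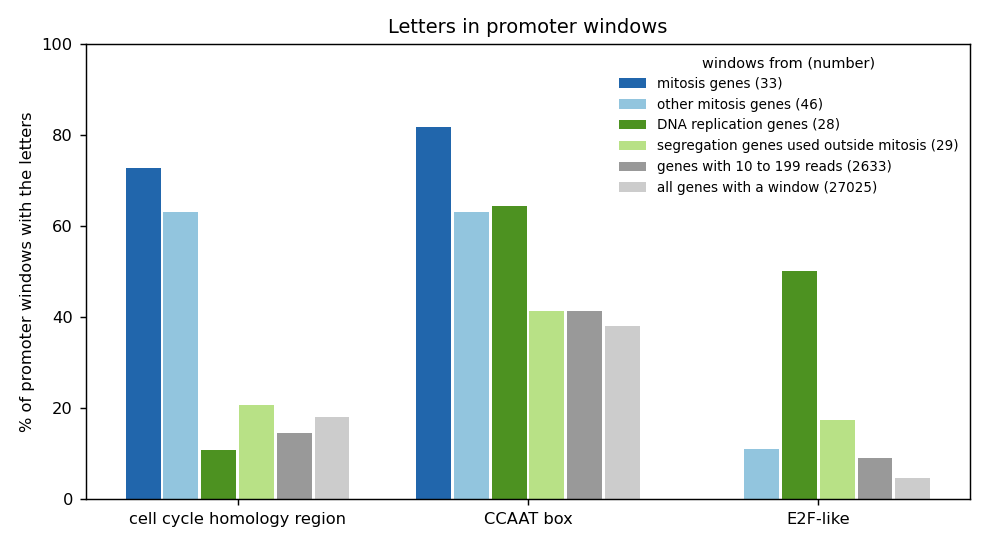
Percentage of 300-base promoter windows that held each set of letters on either strand, with the number of windows in each gene group in brackets. The mitosis genes stood at 72.7% for the cell cycle homology region and 81.8% for the CCAAT box, against 18.1% and 37.9% of all windows, and none held the E2F-like letters. Other mitosis genes stood at 63.0% for each of the first 2.

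Taken as a sum, the mitosis genes lay at 35.9 RPM in MHs (interval 33.1 to 38.9) and 39.5 RPM in SHs (37.6 to 41.4). The log2 ratio of the sums was 0.14 (0.00038 to 0.27), so the interval only just left out 0, and it included 0 when any of 20 of the 38 genes was left out by itself. Of the single-gene omissions, leaving out Mki67 gave the lowest sum ratio, 0.11, and leaving out Pttg1 the highest, 0.28 (0.10 to 0.45). Pttg1 and Cks2 together held 50.7% of the genes' reads in MHs and 44.0% in SHs, and without both, a step added after the values had been seen, the other 36 genes summed to 17.7 RPM in MHs and 22.1 RPM in SHs, giving a log2 ratio of 0.32 (0.13 to 0.51). When SH reads were thinned to the MH total, 678 reads fell on the 38 genes, 37 of them had a read and 17 at least 10. The ratio of the sums was then 0.15, with an interval of -0.0075 to 0.31 that included 0. The sums of both libraries thus lay close together, and of the single genes Pttg1 moved the ratio most, while it was 0.14 without Cks2 alone.

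Counting errors left most single genes undecided. Over both libraries, 29 genes had under 50 reads and 9 had 50 or more, and 3 had under 10 and are given as counts: Cdc25c (0 in MHs, 1 in SHs), Bub1 (1 and 4) and Kif23 (3 and 2). Cdc25c encodes a phosphatase that activates Cdk1, Bub1 a checkpoint kinase and Kif23 a motor of the midzone. Of the other 35, 19 had a log2 ratio above 0 and 16 under it, with a median of 0.07 against 0.02 over all 15521 genes that had 10 reads or more. Over the 5913 of these with fewer than 200 reads, called low-count genes below, it was -0.07. The ratio was above 0 in 54.3% of the 35, against 52.0% of all genes and 45.7% of low-count genes. In 31 of the 35 the interval included 0, and the median width of the intervals was 2.86 on the log2 scale. The narrowest was 0.44, for Pttg1.

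By the rule of at least 2-fold with the interval wholly on that side of 0, none of the 35 genes was lower in SHs, where 4.46% of the 15521 genes were. By the same rule 2 of the 35 (5.71%) were higher, against 2.00% of all genes. Among the 33 low-count mitosis genes, none was lower against 10.4% of all such genes, and 2 (6.06%) were higher against 4.67%. Intervals wholly under 0 at any fold were found for none of the 33 against 13.2%, and wholly above 0 for 4 (12.1%) against 6.34%. Over all 15521 genes, 15.5% had intervals wholly under 0 and 16.8% wholly above it, against none and 4 of the 35. The 4 were Ccnb2, Ube2c, Nek2 and Mki67. A share of 4 in 33 rests on few genes, and no test of it was made.

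**Figure D2:**
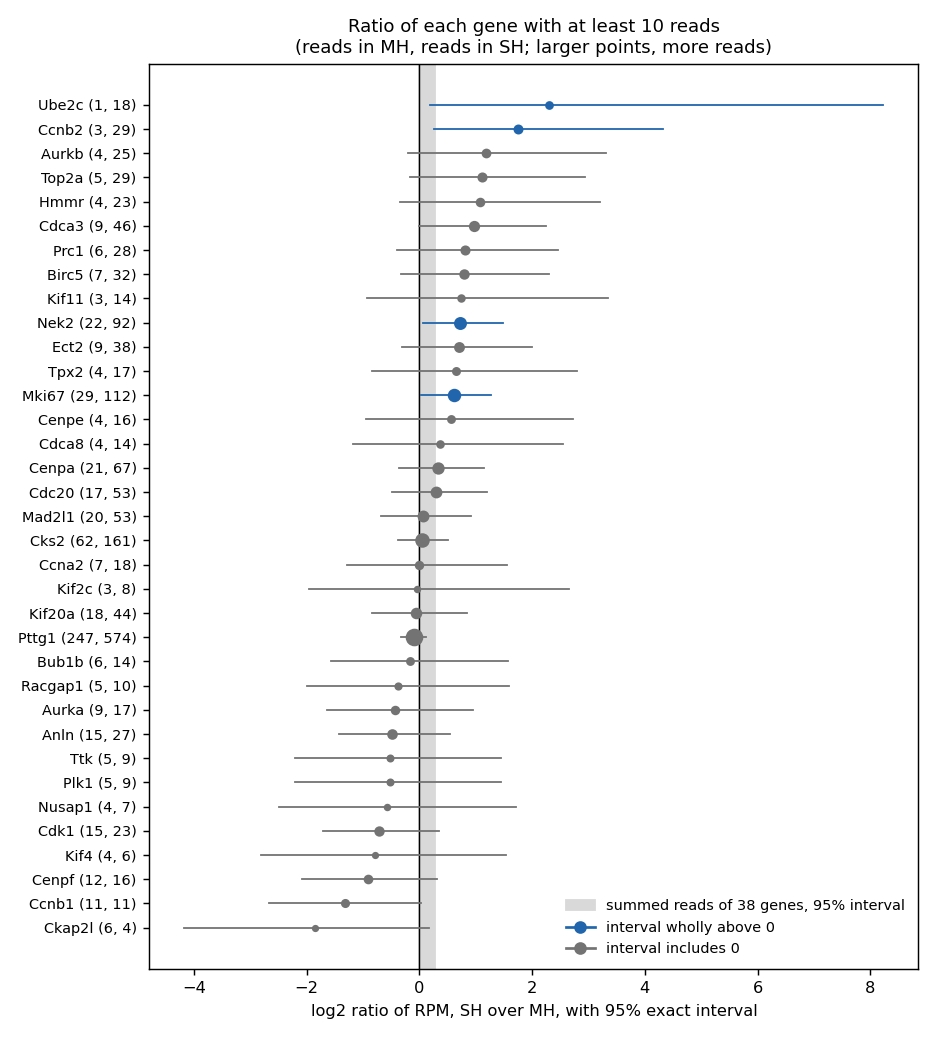
Log2 ratio of RPM, SH over MH, with its exact 95% interval, for the 35 mitosis genes with at least 10 reads, and reads in MHs and SHs in brackets. Only Ube2c, Ccnb2, Nek2 and Mki67 had intervals wholly above 0, and none lay wholly under 0. The grey band is the interval of the summed reads.

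Genes of mitotic entry summed to 143 reads in MHs (8.42 RPM) and 407 in SHs (9.61 RPM), with a log2 ratio of 0.19 (-0.09 to 0.48). Without Cks2 it was 0.28. Cks2, a small protein that binds Cdk1, had 62 reads in MHs (3.65 RPM) and 161 in SHs (3.80 RPM), a ratio of 0.05 (-0.37 to 0.50). Ccnb2, which encodes cyclin B2, held 3 reads in MHs (0.177 RPM) and 29 in SHs (0.685 RPM). Its ratio was 1.76 (0.26 to 4.31), the second highest of the 35, on only 3 reads in MHs. Ccnb1, which encodes cyclin B1, went the other way with 11 reads in each library (0.648 RPM in MHs, 0.260 RPM in SHs), a ratio of -1.32 (-2.67 to 0.03). The B cyclins thus had ratios of opposite sign, and the Ccnb1 interval reached 0. Cdk1, their kinase partner, held 15 reads in MHs against 23 in SHs, a ratio of -0.72 (-1.70 to 0.34), and Ccna2, the S and G2 cyclin, had 7 and 18, a ratio of -0.02. Nek2, a centrosomal kinase, had 22 reads in MHs (1.30 RPM) and 92 in SHs (2.17 RPM), a ratio of 0.72 (0.06 to 1.49). Cdca3 held 9 and 46 reads, a ratio of 0.97 with an interval of -0.01 to 2.25. Aurka, a kinase of centrosomes and spindle poles, held 9 and 17, a ratio of -0.44, and Plk1, a kinase of mitotic entry, 5 and 9, a ratio of -0.53, with intervals that included 0.

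Genes of the checkpoint and the anaphase-promoting complex summed to 297 reads in MHs (17.5 RPM) and 725 in SHs (17.1 RPM), with a log2 ratio of -0.03 (-0.23 to 0.17). Without Pttg1 it was 0.28 (-0.19 to 0.77), on 50 reads in MHs and 151 in SHs. Pttg1 encodes securin, the inhibitor of separase. It was the most abundant of the 38 genes, with 247 reads in MHs (14.5 RPM, 12.8 to 16.5) and 574 in SHs (13.6 RPM, 12.5 to 14.7), a ratio of -0.10 (-0.32 to 0.12). By counting error alone, ratios under -0.32 and above 0.12 lay outside its interval. Ube2c, the conjugating enzyme that works with the anaphase-promoting complex, held 1 read in MHs and 18 in SHs, a ratio of 2.31 with an interval of 0.19 to 8.23. It was the highest ratio of the 35 and rested on a single read in MHs. Cdc20, an activator of that complex, had 17 reads in MHs (1.00 RPM) and 53 in SHs (1.25 RPM), a ratio of 0.29 (-0.49 to 1.20). Mad2l1, a checkpoint protein, had 20 and 53 reads (1.18 and 1.25 RPM), a ratio of 0.07 (-0.68 to 0.91). Bub1b had 6 and 14 reads and Ttk, a checkpoint kinase, 5 and 9, and both intervals included 0.

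Genes of the centromere and the passenger complex summed to 52 reads in MHs (3.06 RPM) and 170 in SHs (4.01 RPM), with a log2 ratio of 0.39 (-0.07 to 0.87). Cenpa, the histone variant of the centromere, had 21 reads in MHs (1.24 RPM) and 67 in SHs (1.58 RPM), a ratio of 0.33 (-0.37 to 1.14). Aurkb, the kinase of the passenger complex, held 4 and 25 reads, a ratio of 1.18 (-0.21 to 3.31). Its partners Birc5 (survivin; 7 and 32 reads, 0.80) and Cdca8 (borealin; 4 and 14, 0.37) also had ratios above 0 and intervals that included it. Cenpf, a kinetochore protein, held 12 and 16 reads, a ratio of -0.92 (-2.08 to 0.31), and the kinetochore motor Cenpe 4 and 16, a ratio of 0.56.

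Genes of the spindle were the scarcest group per gene, with 28 reads in MHs (1.65 RPM) and 79 in SHs (1.87 RPM) over 7 genes, with a log2 ratio of 0.18 (-0.46 to 0.85). Without Hmmr it was -0.10 (-0.81 to 0.66). Hmmr, a microtubule-associated protein, held 4 and 23 reads, a ratio of 1.07 (-0.34 to 3.20). Tpx2, which helps to build the spindle, held 4 and 17 reads, a ratio of 0.64, and Kif11, the motor that separates the poles, 3 and 14, a ratio of 0.73. Kif2c held 3 and 8 reads, Kif4 4 and 6, Nusap1 4 and 7, and Ckap2l 6 and 4, the last with the lowest ratio of the 35, -1.85 (-4.17 to 0.17).

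Genes of cytokinesis summed to 56 reads in MHs (3.30 RPM) and 149 in SHs (3.52 RPM), with a log2 ratio of 0.09 (-0.36 to 0.56). Kif20a, a motor of the midzone, held 18 reads in MHs against 44 in SHs, a ratio of -0.05 (interval to 0.85). Ect2, the exchange factor that starts the contractile ring, held 9 and 38 reads, a ratio of 0.70, and Prc1, which bundles midzone microtubules, 6 and 28, a ratio of 0.81. Anln, a scaffold of the ring, held 15 and 27, a ratio of -0.49, and Racgap1, a partner of Kif23, 5 and 10, a ratio of -0.39. All of these intervals included 0.

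Genes of chromosome structure had the largest ratio of the sums by role, on 2 genes. They summed to 34 reads in MHs (2.00 RPM) and 141 in SHs (3.33 RPM), with a log2 ratio of 0.73 (0.18 to 1.32). Mki67, which coats mitotic chromosomes and is the usual marker of cycling cells, had 29 reads in MHs (1.71 RPM, 1.14 to 2.45) and 112 in SHs (2.64 RPM, 2.18 to 3.18), a ratio of 0.61 (0.03 to 1.27). Top2a, the topoisomerase that untangles chromosomes, held 5 and 29 reads (0.294 and 0.685 RPM), a ratio of 1.10 with 0.5 reads added (-0.17 to 2.94). Mki67 was still under 3 RPM in both libraries.

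**Figure D3:**
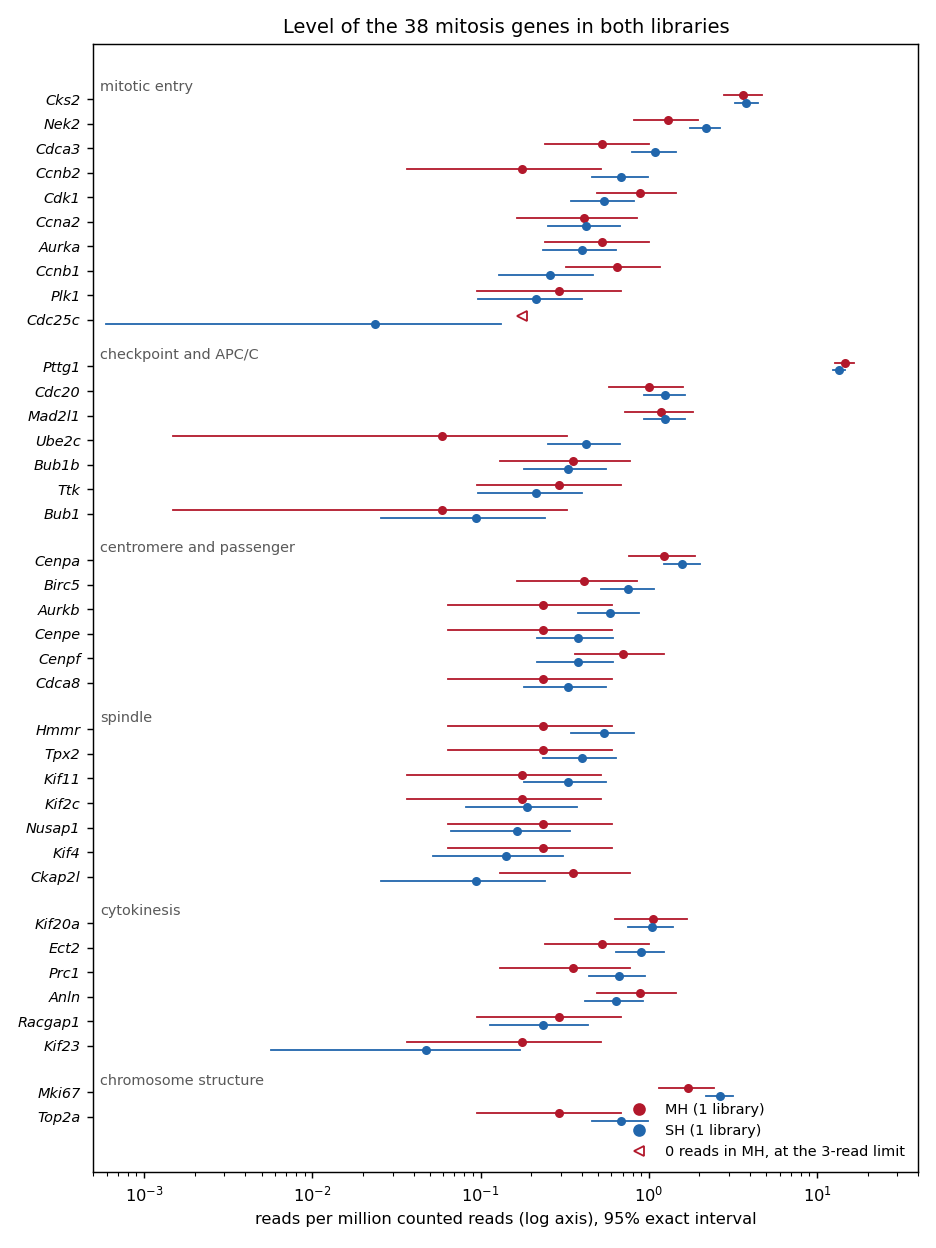
Reads per 1000000 counted reads (RPM) of the 38 mitosis genes in the MH library (red) and the SH library (blue) on a log axis, grouped by role, with exact 95% intervals. Pttg1 (14.5 RPM in MHs, 13.6 RPM in SHs) and Cks2 (3.65 and 3.80 RPM) stood above the rest, most of which lay under 1 RPM with overlapping intervals.

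Per kilobase of merged exons, levels of different genes can be compared only roughly. Exons of all annotated transcripts were merged, to 692 bases for Cks2, 2000 for Pttg1 and 8390 for Mad2l1. Which of the transcripts were present is not known. On this scale Pttg1 stood at 7.27 in MHs and 6.78 in SHs and Cks2 at 5.28 and 5.49 RPM per kb. The next was Cdc20 at 0.536 and 0.670, and 36 of the 38 genes were under 1 in both libraries. Pttg1 was 13.6 times the level of Cdc20 in MHs and 10.1 times in SHs. The median of the 38 genes, of which 3 had under 10 reads, was 0.0901 in MHs and 0.0912 in SHs. Over the 14641 genes that had an exon length and at least 10 reads, a minimum not set for the 38, it was 2.19 and 2.24. The 35 segregation genes used outside mitosis that had an exon length stood at medians of 3.03 in MHs and 3.23 in SHs. Examples chosen after their values had been seen were Fzr1, the activator of the anaphase-promoting complex that works in resting and G1 cells, at 2.91 and 3.23, Bub3 at 2.51 and 2.62 and Mad1l1 at 3.03 and 3.30, while Anapc10, a subunit of that complex, stood under Cdc20 at 0.353 and 0.288. The levels of the 38 genes on the log2 scale had a Pearson correlation of 0.848 between the libraries (Spearman 0.729), and 0.761 (0.681) over the 36 without Pttg1 and Cks2, as a description across genes that share each library's depth.

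**Figure D4:**
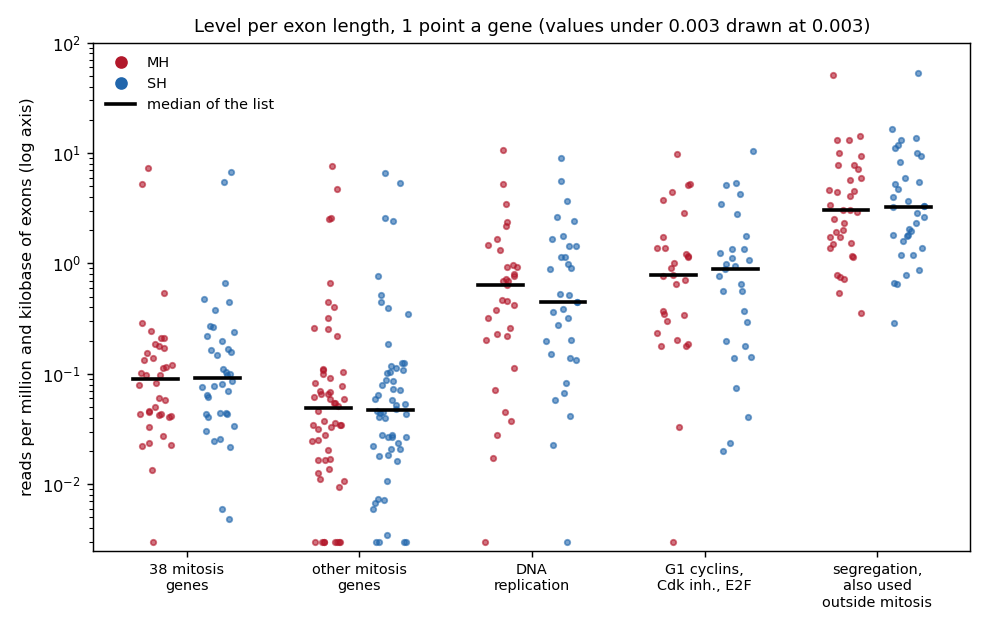
RPM per kilobase of exons, 1 point a gene, in MHs (red) and SHs (blue) on a log axis, for the mitosis genes and 4 comparison lists, with the list's median as a bar. The mitosis genes had medians of 0.0901 in MHs and 0.0912 in SHs, and the segregation genes that also serve other processes 3.03 and 3.23.

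The sums of the comparison lists also differed little. Of 60 other mitosis genes, 36 had at least 10 reads, 18 with a ratio above 0 and 18 under it, at a median of 0.04. By the 2-fold rule, which found 4.46% of all genes lower and 2.00% higher, 2 of the 36 were lower and 2 higher. Their sum was 119.5 RPM in MHs and 112.7 RPM in SHs, giving a log2 ratio of -0.08 (-0.16 to -0.01), but Hjurp, which loads CENP-A, held 53.3% of the reads in MHs (1081 reads in MHs, 2338 in SHs). Without it, a step added after the values were seen, the ratio was 0.04 (-0.07 to 0.15), and over the 54 genes with fewer than 200 reads 0.06 (-0.15 to 0.27). Mastl, a kinase of mitotic entry named here after its values had been seen, had the lowest ratio of the 36, -2.40 (-4.64 to -0.65), on 9 reads in MHs and 4 in SHs. Among genes of that list with at least 20 reads, the ratios ran from -1.21 for Gtse1 (12 and 13 reads) and -1.07 for Spag5 (21 and 25) to 1.69 for Kif14 (6 and 52) and 2.38 for Shcbp1 (1 and 19). The log2 ratio of the sums was 0.05 (0.03 to 0.08) for 36 segregation genes used outside mitosis, -0.02 (-0.08 to 0.04) for 33 DNA replication genes and -0.00 (-0.06 to 0.05) for 29 genes of G1 cyclins, Cdk inhibitors, pocket proteins and E2F. The segregation genes were led in reads by Dync1h1 (3523 in MHs, 7787 in SHs), Skp1a (1930, 4943) and Numa1 (1054, 3129), with the lowest ratios for Cdc16 (-0.34) and Anapc10 (-0.31) and the highest for Anapc2 (0.46) and Smc3 (0.36), and none was 2-fold lower or higher. Of 31 DNA replication genes that passed the count minimum, the 2-fold rule found 2 lower and 1 higher. At any fold, intervals lay wholly under 0 for 5, with Mcm2 (-0.79) and Mcm3 (-0.73) among them, and wholly above 0 for 4. Over all genes 15.5% and 16.8% did. Mcm5 and Mcm6, helicase subunits, had log2 ratios of -1.19 and -1.08, and Chaf1b, a histone chaperone subunit, 1.44, on 9 and 64 reads, and Dtl 1.13 on 4 and 24. The most abundant were Mcm10 (1391 and 2924 reads), Top2b (537 and 1635) and Tk1 (308 and 811). Mcm10, with a ratio of -0.25, held 38.9% of the list's reads in MHs and so weighed on its sum. In the G1 list the 2-fold rule found 3 of 28 lower and none higher, against 4.46% and 2.00% of all genes. Ccnd2, which encodes cyclin D2, held 30 reads in MHs and 8 in SHs, a ratio of -3.16 (-4.56 to -2.07), and Ccne2 14 and 11, a ratio of -1.65. E2f2 held 31 and 116 reads, a ratio of 0.57, and Cdkn2c 32 and 107, a ratio of 0.41, while Rbbp4 (1450 and 3868), Rbl2 (564 and 1372) and Cdk4 (291 and 733) held the most reads.

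**Figure D5:**
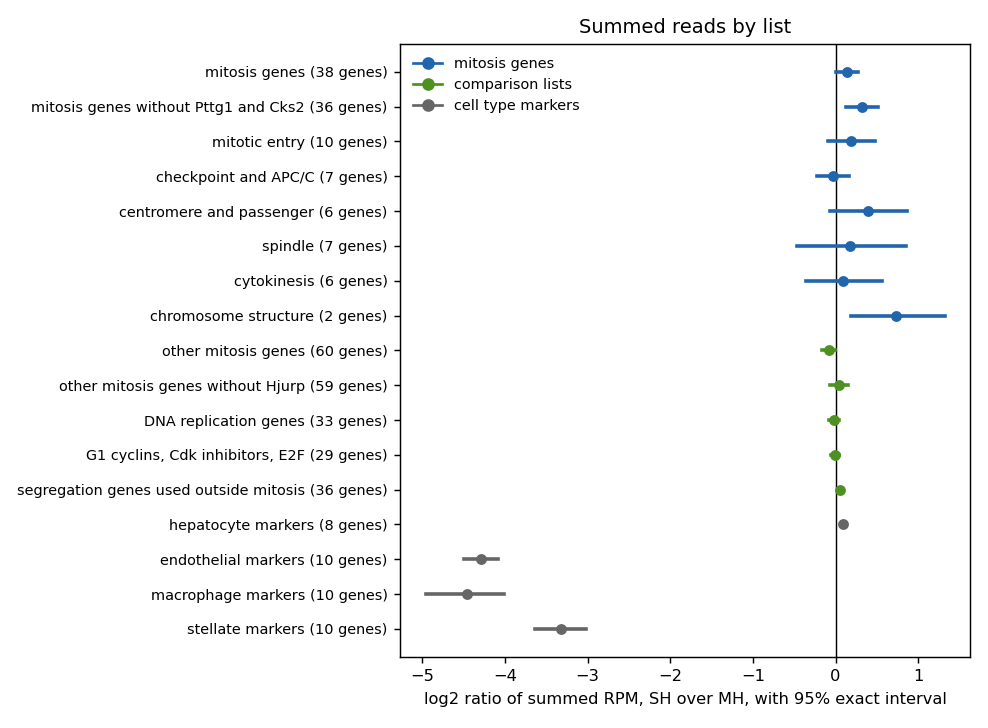
Log2 ratio of the summed RPM, SH over MH, with its exact 95% interval, for the mitosis genes and their roles (blue), the comparison lists (green) and cell type markers (grey). All 38 mitosis genes stood at 0.14 and their roles between -0.03 and 0.73 (chromosome structure), the comparison lists stood between -0.08 and 0.05, and endothelial, macrophage and stellate markers stood between -4.46 and -3.32.

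Annotation limits touched some genes. In GENCODE M21, 13 of the 38 shared exonic bases with another gene, and whether the counting used strand is not given in the sources used here. Those 13 summed to 99 reads in MHs and 323 in SHs, giving a log2 ratio of 0.39 (0.06 to 0.73). The 25 without overlap summed to 511 and 1348, a ratio of 0.08 (-0.07 to 0.23). The 25 include Pttg1 and Cks2, which together held 309 reads in MHs and 735 in SHs, with ratios of -0.10 and 0.05. How far the difference between the 13 and the 25 comes from overlap or from these abundant genes was not tested. Kif20a shares 1271 bases with Cdc23 on the other strand (116 and 317 reads), Kif4 832 with Pdzd11 (181 and 431), and Ube2c 592 with Tnnc2 (0 and 1 reads). Prc1 shares 911 bases with Rccd1 (41 and 90 reads). Nek2, which had an interval wholly above 0, shares 298 with Gm38037. Reads that match several copies of a gene, or come from both strands, cannot be told apart here, so values of these genes are uncertain. Pttg1 (mm10 chr11:43420250-43426251) and Cks2 (chr13:51645232-51650660) share none with another gene.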

How the data were processed

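Poly(A) RNA libraries of mature and small hepatocytes, 1 each, had been made with the Ion Total RNA-Seq Kit v2 and read on an Ion Proton. Whole-number counts for each symbol, on mm10, were deposited by the authors, and the methods name CLC Genomics Workbench and RPKM, but the program and annotation that gave the deposited counts are not given in the sources used here. Each count was divided by its library's total, times 1000000 (RPM). Log2 ratios of single genes took 0.5 added reads, and ratios of sums took none; intervals were exact Clopper-Pearson (SciPy 1.17.1) on the share of reads in the SH library, and cover counting error only, as no molecular identifiers were used. Depth was 16979136 and 42356444 reads. Scaling alternatives came from edgeR 4.0.16 and DESeq2 1.42.0, which the counts allow. Exon lengths and overlaps were taken from GENCODE M21 and promoters from RefSeq GRCm38.p6. Scripts were tested on simulated data. Genes were named by a rule: all 38 genes, the 3 most abundant and 2 lowest and 2 highest ratios of each comparison list among those with at least 20 reads, and the most abundant markers. The members and lists were chosen with earlier results of these data known. The summed level of the cholangiocyte markers is not reported here.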

Additional observations from a re-analysis of the deposited data

Results flagged for a closer look

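Nothing met a rule for a closer look: 1 library per cell type allows neither a sample apart nor a difference between groups to be judged, and no file lay outside the comparison.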

How the results depend on the processing

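No paired analysis was possible because each cell type had a single library, which also left no replicate to leave out. Scaling by DESeq2 size factors, by edgeR's TMM, or by a total that left out the 10 most abundant genes shifted all log2 ratios by 0.0091, 0.0096 and 0.032. The ratio of the sum was 0.28 without Pttg1, the gene with the most reads, and 0.32 without Pttg1 and Cks2 (added after the data were seen), against 0.14. The checkpoint genes gave 0.28 without Pttg1. The share of all genes that was higher under the same setting is given in brackets. The count of mitosis genes at least 2-fold higher was 2 (2.00%). It was 1 with at least 20 reads (1.80%) and 0 with at least 50 (1.10%). It was 4 at 1.5-fold (3.50%), 1 at 4-fold (0.883%) and 4 at any fold (16.8%). It was 3 with the total that left out the 10 most abundant genes, a setting for which the share of all genes was not counted. The gene added there was Cdca3, with a ratio of 0.97 (-0.01 to 2.25) under the main scaling. That count therefore has no share to be read against. The median of the other mitosis genes was -0.086 with 2 reads added, against 0.04. Under these alternatives, 36 values for lists, sums and counts and all 35 values for single genes are not named as moved. Of these, sums and single genes moved by less than the counting interval of the main value, and counts by no more than 1.5 times. Medians of the comparison lists have no counting interval, so that limit does not apply to them. With 12 genes at 10 or more reads in MHs, differences of most single genes were not detectable at this depth.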
